A study of Mus musculus with 6 samples.

Results

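The 9 genes described here encode chains of laminin in native cardiac fibroblasts (CFs), namely Lama2, Lama3, Lama4 and Lama5 for alpha chains, Lamb1, Lamb2 and Lamb3 for beta chains, and Lamc1 and Lamc3 for gamma chains. They were taken by gene symbol and are 9 of the 49548 genes in the count table. The set was chosen with earlier results of these data known, so it is not independent of the data. All 9 were among the 15789 genes tested, which reached a count of 10 in 2 or more libraries. mRNA was sequenced from native CFs of WT and CharmeKO C57BL/6J mice at 5 weeks of age, with 3 libraries per group. CharmeKO mice carry a poly(A) signal inserted in the locus of Charme, a cardiac long non-coding RNA. CFs of both groups were freshly isolated, according to the study's methods, by enzymatic dissociation of the heart, red blood cell lysis and immunomagnetic depletion of hematopoietic lineages. The labels of the libraries list a serum-containing growth medium on fibronectin instead. The study took hearts of 3 mice per genotype and describes its replicates as biological, while the labels do not name the animal behind each library.

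A laminin molecule is a cross-shaped trimer of an alpha, a beta and a gamma chain, joined along a coiled coil and secreted as a unit. Trimers polymerize into a sheet on the cell surface, which type IV collagen, nidogen and perlecan link into the basement membrane. Through the end of the alpha chain the sheet binds integrins and dystroglycan, whose sugar chain is the laminin-binding part. In the heart, basement membranes surround each cardiomyocyte and underlie the endothelium and the mural cells of vessels.

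Reads counted on genes numbered between 9595701 and 42101393 per WT library and between 23550718 and 31048606 per CharmeKO library. Charme itself had 26, 15 and 4 counts in WT replicates 1, 2 and 3 and 7, 0 and 0 counts in CharmeKO replicates 1, 2 and 3, and a listed 0 is compatible with as many as 3 counts, a limit for counting error only. Fibroblast markers were abundant, with a summed level over the 8 listed genes of 31231 to 37746 CPM in WT and 29707 to 34775 CPM in CharmeKO (CPM, the normalized count scaled to the library total). Gsn made up the largest part of this sum, at a mean of 20816 CPM in WT and 21211 CPM in CharmeKO, and single markers are described below. Other cells were also present, since the 10 endothelial markers summed to 7714 to 9298 CPM in WT and 8210 to 10410 CPM in CharmeKO, and Kdr, the gene of the vascular marker CD309, lay between 795 and 1224 CPM. The libraries were not balanced for Xist and Y-linked transcripts: WT replicate 1 and CharmeKO replicates 1 and 2 had 9196 to 16783 Xist counts, and the other 3 libraries had 0 to 67. CharmeKO replicate 1 also held 136 counts on 4 Y-linked genes, where the other Xist-high libraries held 0 and the Xist-low libraries 886 to 2967. Differences within this split, with 1 or 2 libraries per group on each side and no test, are given below for the results they touch.

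Among the laminin genes, Lamc3 fell in CharmeKO CFs, to 15.4% of WT, and was the 1 of 9 genes to pass an adjusted p of 0.05, beside 0.412% of all tested genes that passed in the lower direction. The test was edgeR's quasi-likelihood test, the p-values were adjusted by Benjamini-Hochberg over the 15789 genes, and adjusted p-values below are from it unless DESeq2 is named. At an unadjusted p under 0.05 in edgeR were 4 of the 9 genes and 12.8% of all tested genes. Fitted values were below 0 for 8 of the 9 genes, and Lama3 was the exception. The median log2 fold change over the 9 genes was -0.30, or 81.0% of WT, beside 0.0097 over all tested genes, of which 48.8% had a value below 0. In 4 genes, Lama5, Lamb3, Lamc1 and Lamc3, all 3 CharmeKO libraries lay below all 3 WT libraries, which was so for 8.59% of tested genes. With DESeq2 on the same genes Lamc1 also passed (adjusted p = 0.0206), giving 2 of 9 where 1.52% of all tested genes passed in the lower direction. In bulk RNA, fewer cells of a type and less RNA per cell cannot be told apart.

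**Figure D1:**
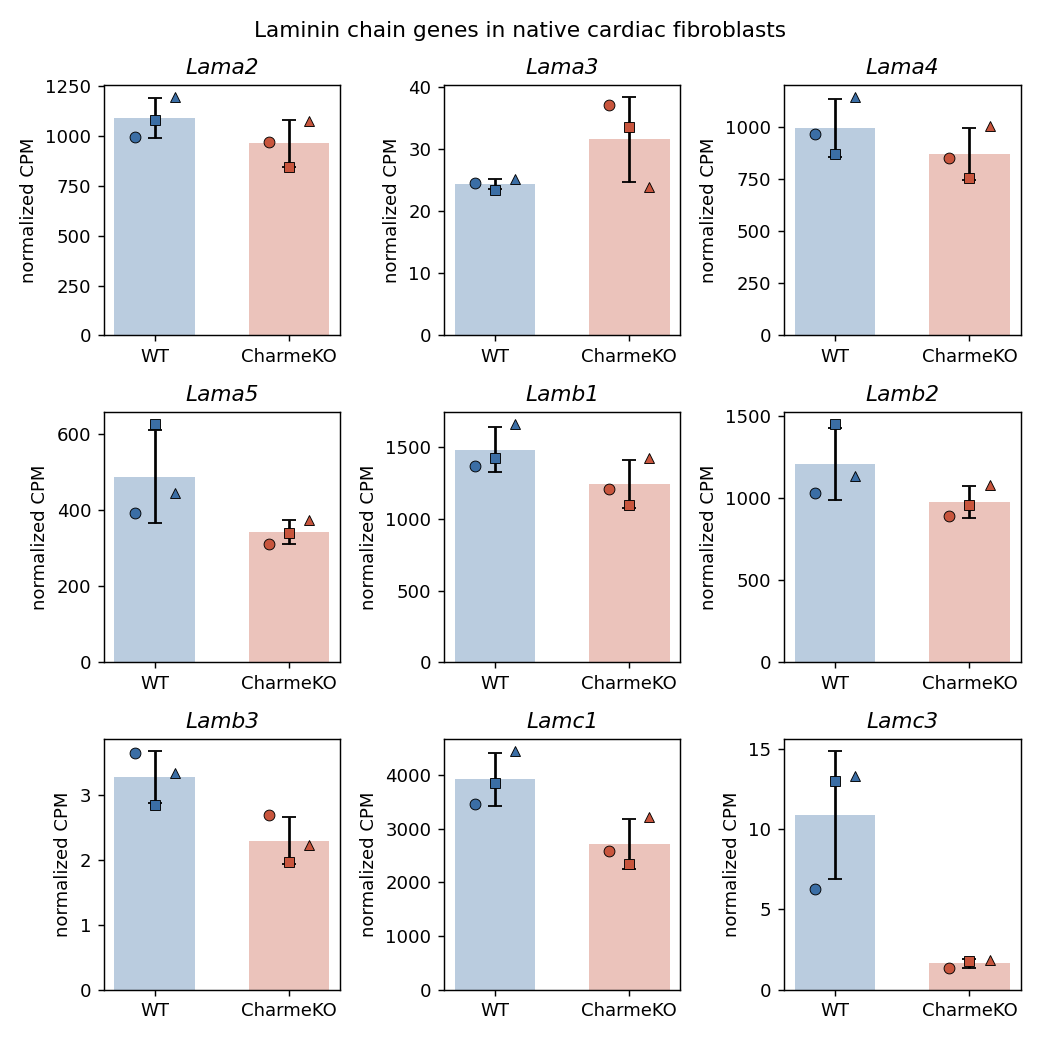
Normalized CPM of the 9 laminin chain genes in WT (blue) and CharmeKO (red) libraries, with a linear axis from 0 in each panel. Bars are group means, error bars 1 SD (n = 3), and circles, squares and triangles are replicates 1, 2 and 3. The CharmeKO points lie below all WT points for Lama5, Lamb3, Lamc1 and Lamc3.

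To compare genes with each other, levels were divided by the length of the longest transcript, in CPM per kb. Lamc1, the common gamma chain, was the most abundant, at 514 ± 64.8 (SD, n = 3) CPM per kb in WT and 356 ± 60.2 in CharmeKO. Lamb1 followed at 256 ± 27.0 and 214 ± 28.8, and Lamb2 at 214 ± 38.7 and 174 ± 17.2, in WT and CharmeKO respectively. Lamb1 exceeded Lamb2 in 5 of 6 libraries and their ranges overlapped. Next came Lama4 at 165 ± 22.9 and 144 ± 20.7 CPM per kb, Lama2 at 114 ± 10.4 and 100.2 ± 12.1, and Lama5 at 42.9 ± 10.8 and 30.1 ± 2.83. Lamb2 exceeded Lama4 in 6 of 6 libraries although the ranges of the libraries overlapped, whereas the ranges of Lama4, Lama2 and Lama5 did not overlap with each other. A second tier of 3 genes lay below Lama5, whose mean over the 6 libraries was 13.7 times that of Lama3, the next gene. Lama3 was at 2.31 ± 0.0802 CPM per kb in WT and 3.00 ± 0.652 in CharmeKO, Lamc3 at 1.85 ± 0.681 and 0.282 ± 0.0487, and Lamb3 at 0.673 ± 0.0819 and 0.472 ± 0.0753. Lamc3 exceeded Lamb3 in 3 of 6 libraries, which were the 3 WT libraries, so that the last places of the order changed between the groups. Over the coding length instead, the order of the 9 genes by mean was the same, and the mean over all libraries moved from 435 to 687 for Lamc1, whose longest transcript has 7622 bases and a coding part of 4821.

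**Figure D2:**
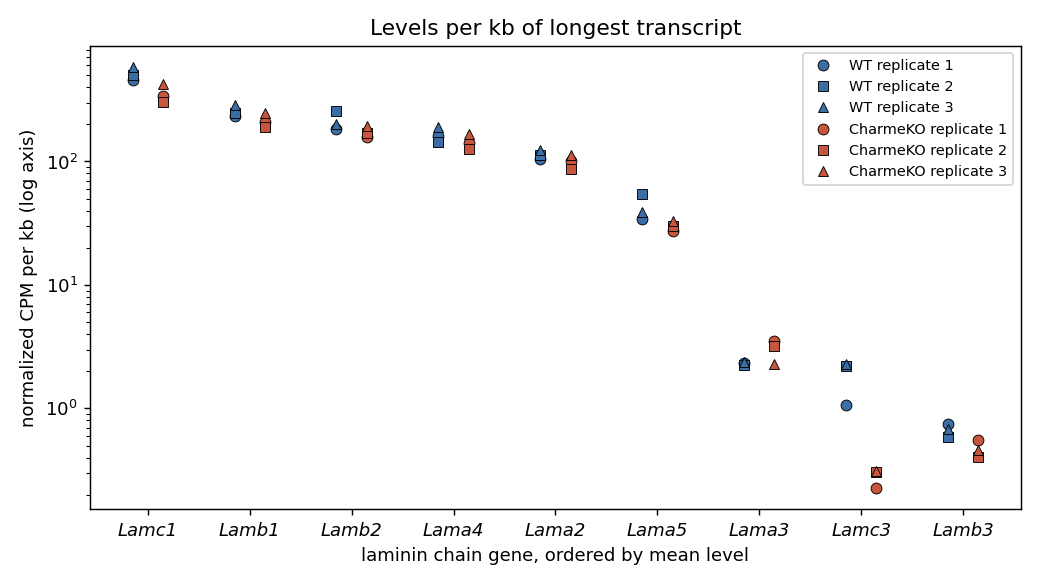
Levels of the 9 genes in CPM per kb of the longest transcript, on a log axis, ordered by the mean over the 6 libraries, with 1 point per library. Lamc1, Lamb1, Lamb2, Lama4, Lama2 and Lama5 form an upper tier, and Lama3, Lamc3 and Lamb3 a lower one in which Lamc3 is above Lamb3 in WT and below it in CharmeKO.

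Start-site sequence was printed to show the letters upstream of the abundant chains for which the reference table held an entry outside annotated transcripts. RefSeq start-site entries were found for 5 of the 9 genes, of which Lamb3 had 2 entries and was not used. For 3 of the others at least 50 bases lay upstream of every annotated transcript of the gene. The assembly was GRCm38.p6, which is another build than that of the counts. The sequences are at chr2:180225905-180226109 on the minus strand for Lama5, chr12:31265043-31265145 on the plus strand for Lamb1 and chr9:108479612-108479735 on the plus strand for Lamb2. Each is written 5′ to 3′ on the strand of its gene, and capitals mark GC boxes, searched as GGGCGG on both strands with no other motif searched.
Lama5: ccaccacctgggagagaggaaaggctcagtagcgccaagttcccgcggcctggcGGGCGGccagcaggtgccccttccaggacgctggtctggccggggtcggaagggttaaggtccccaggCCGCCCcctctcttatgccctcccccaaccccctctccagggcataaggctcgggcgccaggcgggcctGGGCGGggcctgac
Lamb1: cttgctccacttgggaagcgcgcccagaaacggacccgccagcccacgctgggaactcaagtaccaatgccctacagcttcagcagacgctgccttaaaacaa
Lamb2: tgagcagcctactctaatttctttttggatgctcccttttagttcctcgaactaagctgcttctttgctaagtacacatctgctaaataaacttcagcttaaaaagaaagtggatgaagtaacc
Lama5, whose promoter stretch had a GC content of 71.7%, held 3 GC boxes in 205 bases, and 25.6% of all 32851 start-site entries held at least 1 in a stretch of that length. The shorter stretches of Lamb1 and Lamb2 held 0, where 10.8% and 13.3% of entries held at least 1 in the same lengths. The median GC content of stretches of these lengths was 50.5% to 51.7% over all entries, and those of Lamb1 and Lamb2 had 58.3% and 37.9%. These matches describe the letters only.

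Among the alpha chains, Lama2, the chain of the muscle basement membrane whose loss causes a congenital muscular dystrophy, had 998, 1081.5 and 1197 CPM in WT replicates 1, 2 and 3 and 969, 844 and 1076 CPM in CharmeKO replicates 1, 2 and 3. The groups overlapped, and the log2 fold change was -0.18 (SE 0.14, edgeR, adjusted p = 0.641). Lama4, a chain of endothelial and muscle basement membranes, had 970, 874 and 1147 CPM in WT and 852, 756 and 1005 CPM in CharmeKO, in the same order of replicates. These groups overlapped too, with a log2 fold change of -0.19 (SE 0.15, edgeR, adjusted p = 0.648). The log2 difference of Lama4 was -0.27 within the Xist-high and 0.0046 within the Xist-low libraries, and that of Lama2 was -0.14 and -0.08.

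Lama5, an alpha chain of vessel walls and of many epithelia, had 393, 627 and 447 CPM in WT and 311, 341 and 376 CPM in CharmeKO. All CharmeKO libraries were below the WT libraries, with WT replicate 2 the highest of the 6. The log2 fold change was -0.51 (SE 0.17, edgeR, unadjusted p = 0.0120) and did not pass the adjustment (adjusted p = 0.254). Without WT replicate 2 it was -0.29 (edgeR, adjusted p = 0.312), and after removal of each library's trend over GC content and gene length it was -0.21 (edgeR, adjusted p = 0.661). Within the Xist-high libraries the log2 difference of Lama5 was -0.27 and within the Xist-low libraries -0.49. The longest Lama5 transcript has a GC content of 59.9%, the highest of the 9 genes.

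Lama3, the alpha chain of epithelial laminin, differed from the others in sign, with 24.6, 23.5 and 25.2 CPM in WT and 37.2, 33.7 and 23.9 CPM in CharmeKO. CharmeKO replicates 1 and 2 were above all WT libraries and CharmeKO replicate 3 was among them. The log2 fold change was 0.37 (SE 0.16, edgeR, adjusted p = 0.367). Within the Xist-high libraries the log2 difference was 0.52 and within the Xist-low libraries -0.02, with 1 or 2 libraries per group in each and no test. The level of Lama3 sat beside near-absent epithelial markers, since Krt5 was listed at 0 in all libraries and Epcam, Krt14 and Cdh1 had 28, 8 and 6 counts over the 6 libraries together.

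Of the beta chains, Lamb1, the widely used one, had 1363, 1418 and 1657 CPM in WT and 1205, 1094 and 1421 CPM in CharmeKO. CharmeKO replicate 3 lay within the WT range, and the log2 fold change was -0.25 (SE 0.15, edgeR, adjusted p = 0.502), with log2 differences of -0.25 within the Xist-high and -0.11 within the Xist-low libraries. Lamb2, the beta chain of mature vessels, glomeruli and synapses, had 1031, 1450 and 1136 CPM in WT and 891, 958 and 1082 CPM in CharmeKO. Again 1 CharmeKO library was within the WT range, and WT replicate 2 was the highest, as for Lama5. The log2 fold change of Lamb2 was -0.30 (SE 0.16, edgeR, adjusted p = 0.450). It was -0.15 without WT replicate 2 and -0.07 once the trends over GC content and length were taken out, in a gene whose longest transcript has a GC content of 58.8%. Within the Xist-high and Xist-low libraries the log2 difference of Lamb2 was -0.16 and -0.25.

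Lamb3, the beta chain of epithelial laminin, was near the lower end of the tested genes, with 155, 75 and 31 counts in WT and 77, 48 and 68 counts in CharmeKO. In CPM these were 3.64, 2.85 and 3.33 in WT and 2.69, 1.96 and 2.24 in CharmeKO, and the groups did not overlap. The log2 fold change of -0.51 (SE 0.30) did not pass the test (edgeR, adjusted p = 0.507), and the log2 difference was -0.67 within the Xist-high and -0.46 within the Xist-low libraries.

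Lamc1 encodes the gamma chain found in most laminin trimers, and it contributed 36.7% to 44.1% of the summed CPM of the 9 genes in each library. It had 3460, 3843 and 4440 CPM in WT and 2581, 2333 and 3222 CPM in CharmeKO. The highest CharmeKO library, replicate 3, was below the lowest WT library, replicate 1. The log2 fold change was -0.53 (SE 0.16), or 69.3% of WT, with an unadjusted p of 0.00732 in edgeR and an adjusted p of 0.207. DESeq2 called it (adjusted p = 0.0206), and over the 15 alternatives, which include DESeq2, the adjusted p ran from 0.0206 to 0.621 and the log2 fold change from -0.67 to -0.39. Within the Xist-high libraries the log2 difference was -0.50 and within the Xist-low libraries -0.36.

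Lamc3 encodes a gamma chain of more restricted distribution, known from nerve, retina and some vessel and epithelial basement membranes. It had 266, 342 and 124 counts in WT and 38, 44 and 56 counts in CharmeKO. In CPM these were 6.25, 13.0 and 13.3 in WT and 1.33, 1.80 and 1.84 in CharmeKO, means of 10.9 ± 4.00 and 1.66 ± 0.286 (SD, n = 3). The groups were far apart, and within WT replicate 1 was the lowest. The log2 fold change was -2.70 (SE 0.32, edgeR's quasi-likelihood test, adjusted p = 0.00148 by Benjamini-Hochberg). It passed in all 15 alternatives, with a log2 fold change between -2.98 and -2.41. WT replicate 1 was also the only Xist-high WT library, and the log2 difference was -2.02 within the Xist-high and -2.84 within the Xist-low libraries. With a term for this split the fitted value was -2.41 (edgeR, adjusted p = 0.00221).

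Of the 8 fibroblast markers 4 had fitted values below 0 and 4 above. At an unadjusted p under 0.05 were 3, beside 12.8% of all tested genes. These were Col1a1 at -0.77, Col1a2 at -0.54 and Dcn at 0.29 (edgeR, adjusted p = 0.189, 0.268 and 0.381). Of the 8 genes 0 were called by edgeR and 1 by DESeq2, beside 131 and 394 of all 15789 tested genes in either direction. Markers of other cells differed between the same libraries. Of the 7 epicardial markers, 6 were tested and all 6 had fitted values below 0, with 1 called, Wt1, a transcription factor of the epicardium, at -0.66 (edgeR, adjusted p = 0.0189). Of all tested genes 48.8% had a fitted value below 0 and 0.412% were called in the lower direction. The summed level of the epicardial markers was 57.8 to 74.9 CPM in WT and 34.0 to 41.4 CPM in CharmeKO. Upk3b, Lrrn4 and Msln were at 0 in CharmeKO replicate 1, Upk1b was at 0 in CharmeKO replicate 2, and Bnc1, which was not tested, had 12 counts in the WT libraries and 0 in the CharmeKO libraries. Of the 8 cardiomyocyte markers all 8 had fitted values above 0, and Myh6 and Tnni3 passed the test. In the higher direction 66 of all 15789 tested genes passed. The summed level of the 8 cardiomyocyte markers was 207 to 266 CPM in WT and 302 to 474 CPM in CharmeKO, with no marker at 0. The 7 pericyte markers summed to 1885 to 2327 CPM in WT and 1836 to 2072 CPM in CharmeKO, with 5 fitted values below 0 and no marker at 0. Of these 7 pericyte markers 0 were called by edgeR and 2 were at an unadjusted p under 0.05, beside 12.8% of all tested genes. DESeq2 called 1 of the 7, beside 394 of all 15789 tested genes in either direction. In 3 of the 7, Pdgfrb, Cspg4 and Notch3, all CharmeKO libraries were below the WT libraries, beside 8.59% of all tested genes. Of the 10 endothelial markers 7 had fitted values above 0, with a median log2 fold change of 0.21 and no marker at 0. In 4 of them, Tek, Emcn, Fabp4 and Kdr, all CharmeKO libraries were above the WT libraries. The share of all tested genes in that direction was not computed. At an unadjusted p under 0.05 were 3 of the 10 endothelial markers, beside 12.8% of all tested genes, and 0 were called by edgeR or DESeq2. The part of these cells in the levels of Lamc3, Lamc1 and the other laminin genes was not tested.

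**Figure D3:**
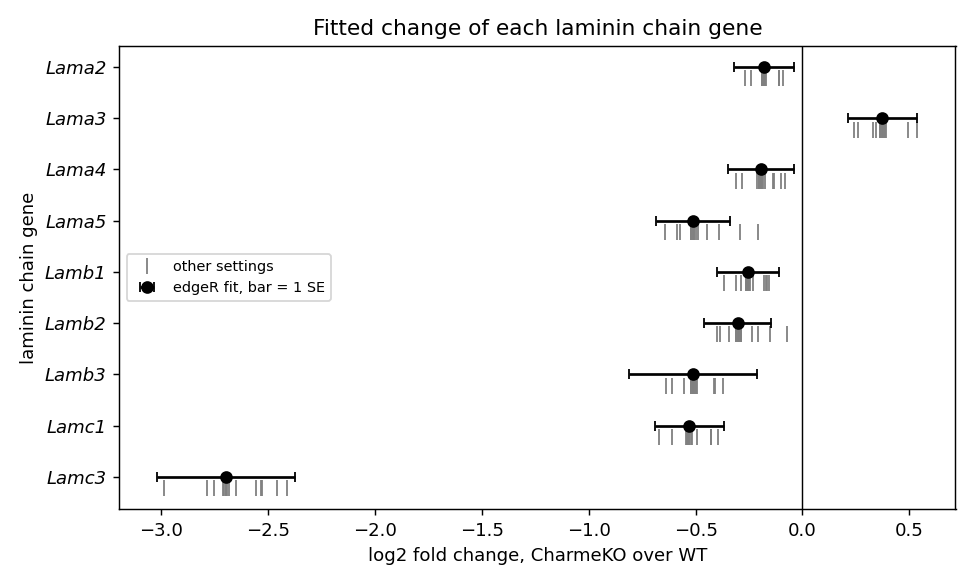
Log2 fold change of each laminin chain gene, CharmeKO over WT, from the edgeR fit (black point, bar 1 SE) and under the 15 alternative settings (grey ticks). Lamc3 stands at -2.70 with all ticks below -2, the other 8 genes lie between -0.53 and 0.37, and no tick is on the other side of 0 from its point.

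Because the chains assemble in trimers, ratios between chains were compared within libraries, as log2 ratios of counts per kb, with exact two-sided permutation tests. With 3 libraries against 3 the smallest p is 0.1, so no ratio could pass a threshold of 0.05, and p-values were adjusted over the 6 ratios. The log2 ratio of Lamc3 to Lamc1 was -8.74, -7.83 and -8.00 in WT and -10.6, -9.96 and -10.4 in CharmeKO. The mean difference, CharmeKO minus WT, was -2.11 (exact permutation test, p = 0.1, adjusted p = 0.3), and it was -1.52 within the Xist-high and -2.48 within the Xist-low libraries. Lamc3 was 0.353% ± 0.106 (SD, n = 3) of the gamma chain level per kb in WT and 0.0803% ± 0.0175 in CharmeKO. The log2 ratio of the gamma sum to the alpha sum was 0.60, 0.69 and 0.72 in WT and 0.31, 0.32 and 0.43 in CharmeKO. These groups did not overlap either, and CharmeKO was lower, with a difference of -0.31 (exact permutation test, p = 0.1, adjusted p = 0.3) that was -0.28 within the Xist-high and -0.27 within the Xist-low libraries. The absolute position of this ratio depends on the transcript length used for Lamc1.

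The other 4 ratios overlapped between the groups. The beta sum to the alpha sum was 0.54 ± 0.12 (SD, n = 3) in WT and 0.49 ± 0.06 in CharmeKO on the log2 scale (exact permutation test, p = 0.7, adjusted p = 1). Lamb2 to Lamb1 was -0.27 ± 0.30 and -0.30 ± 0.13, and WT replicate 2, at 0.07, was the 1 library with more Lamb2 than Lamb1. For Lama4 to Lama2 the values were 0.53 ± 0.15 and 0.52 ± 0.04, and for Lama5 to Lama4 they were -1.96 ± 0.49 and -2.26 ± 0.17, in WT and CharmeKO respectively. The last difference, -0.29, was -0.01 without WT replicate 2. It was 0.0017 within the Xist-high and -0.50 within the Xist-low libraries. The differences within the Xist-high and Xist-low libraries also had opposite signs for Lamb2 to Lamb1, at 0.09 and -0.14, for Lama4 to Lama2, at -0.13 and 0.08, and for the beta sum to the alpha sum, at 0.01 and -0.08. As shares of the alpha chain level per kb, Lama4 was 50.9% ± 4.22 (SD, n = 3) in WT and 51.9% ± 1.09 in CharmeKO, Lama2 35.1% ± 0.654 and 36.1% ± 0.738, and Lama5 13.3% ± 3.63 and 10.9% ± 1.12.

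**Figure D4:**
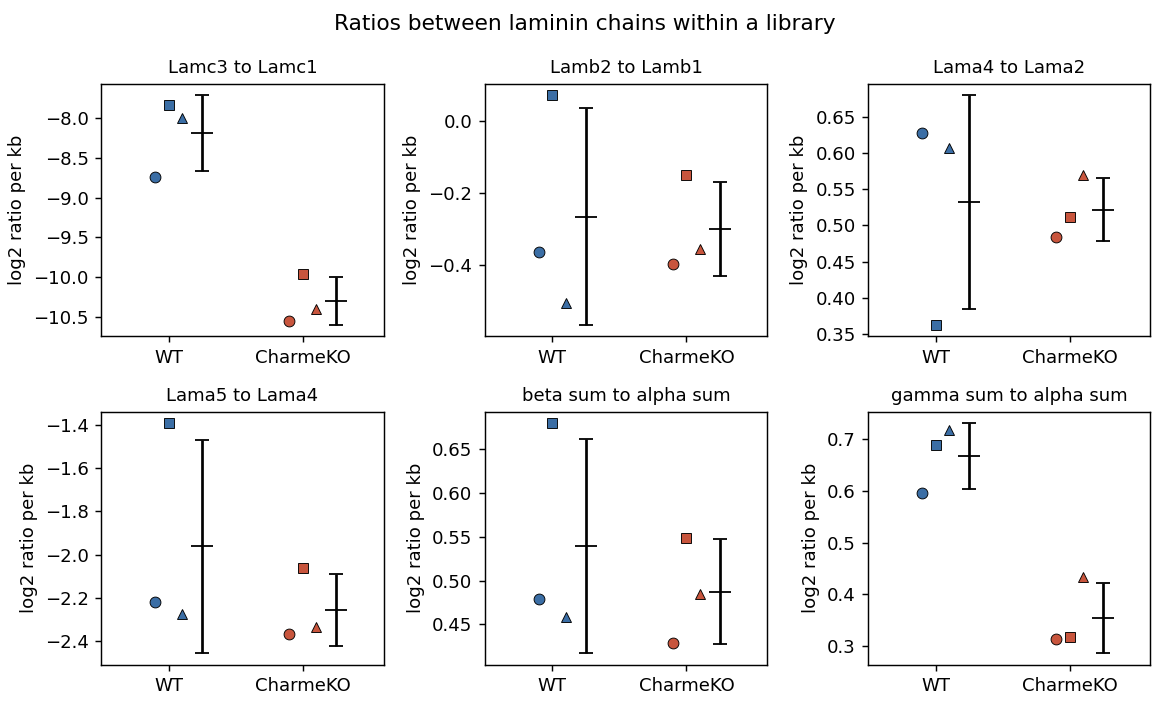
Log2 ratios per kb between laminin chains or chain classes within each library, in WT (blue) and CharmeKO (red), with circles, squares and triangles for replicates 1, 2 and 3 and the mean ± 1 SD in black (n = 3). The groups do not overlap for Lamc3 to Lamc1 and for gamma to alpha, and they overlap in the other 4 panels.

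Of the chains outside the 9 genes, Lama1, an alpha chain of the early embryo, had 4, 11 and 2 counts in WT and 1, 3 and 0 in CharmeKO and was not tested.

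None of the 9 laminin receptor genes passed the test, where 0.830% of all tested genes passed in either direction, and 0 were at an unadjusted p under 0.05 (0 by DESeq2 as well). Their median log2 fold change was -0.08, with 5 below and 4 above 0. Itgb1, the common beta subunit of laminin-binding integrins, had 838 to 1119 CPM in WT and 1032 to 1048 CPM in CharmeKO, at a log2 fold change of 0.07 (SE 0.14, edgeR, adjusted p = 0.873). Bcam, the Lutheran antigen, which binds laminins with the Lama5 chain, had 546, 832 and 560 CPM in WT and 540, 606 and 689 CPM in CharmeKO, and its value of -0.08 (SE 0.18) did not pass (edgeR, adjusted p = 0.892). As for Lama5 and Lamb2, WT replicate 2 was the highest library.

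Among the 14 genes listed for the glycosylation of dystroglycan, 0 passed the test in edgeR or DESeq2 and 2 were at an unadjusted p under 0.05 in edgeR, beside 12.8% of all tested genes. Their median log2 fold change was 0.02, with 7 values on each side of 0. B4gat1, which primes the laminin-binding sugar chain, had a log2 fold change of -0.08 (SE 0.14, edgeR, adjusted p = 0.866). Pomgnt1, of the same list, had 0.20 (SE 0.11, edgeR, adjusted p = 0.464), with 42.8 to 49.1 CPM in WT and 51.6 to 53.5 CPM in CharmeKO.

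Over the 24 basement membrane partner genes the median log2 fold change was -0.52, with 22 values below 0 and 2 above. Both genes that passed the test encode type IV collagen chains and fell, beside 0.412% of all tested genes that passed in the lower direction. Col4a3 had 94.5, 74.9 and 123 CPM in WT and 53.3, 43.8 and 60.7 CPM in CharmeKO, with a log2 fold change of -0.89 (SE 0.18, edgeR, adjusted p = 0.0460). Col4a4 had 195, 163 and 273 CPM in WT and 94.7, 77.0 and 122 CPM in CharmeKO, with a log2 fold change of -1.10 (SE 0.20, edgeR, adjusted p = 0.0305). Neither passed after removal of the GC and length trends, nor when WT replicate 1, WT replicate 3, CharmeKO replicate 1 or CharmeKO replicate 2 was left out. Col4a4 alone passed without CharmeKO replicate 3 and with the Xist term. In 11 of the 24 genes the CharmeKO libraries were all below the WT libraries, beside 8.59% of all tested genes. In 1 gene they were all above, a direction for which the share of all tested genes was not computed. At an unadjusted p under 0.05 in edgeR were 14 of the 24 genes, beside 12.8% of all tested genes. The most abundant partners by CPM per kb were Sparc, a collagen chaperone of the matrix, at -0.32 (SE 0.19, edgeR, adjusted p = 0.516), and Col4a1, a main type IV collagen chain, at -0.53 (SE 0.21, edgeR, adjusted p = 0.316). Col4a1 had 7709, 7356 and 9571 CPM in WT and 4371, 5124 and 7608 CPM in CharmeKO, and CharmeKO replicate 3 reached the WT range. DESeq2 called 8 of the 24 genes, all lower, namely Col15a1, Col18a1, Col4a2, Col4a3, Col4a4, Hmcn2, Hspg2 and Pxdn. With DESeq2 1.52% of all tested genes passed in the lower direction.

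Netrins share the terminal domains of laminin short arms, and Ntn4 can cap the laminin network. Of 3 tested netrin genes 0 passed in edgeR and 1 was at an unadjusted p under 0.05, beside 12.8% of all tested genes. Ntn1, a guidance cue, had 380, 315 and 433 CPM in WT and 270, 198 and 268 CPM in CharmeKO, which did not overlap, at -0.62 (SE 0.16, edgeR, adjusted p = 0.140). Ntn1 passed in DESeq2, where 1.52% of all tested genes passed in the lower direction. Ntn4 had a log2 fold change of -0.20 (SE 0.17, edgeR, adjusted p = 0.666).

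**Figure D5:**
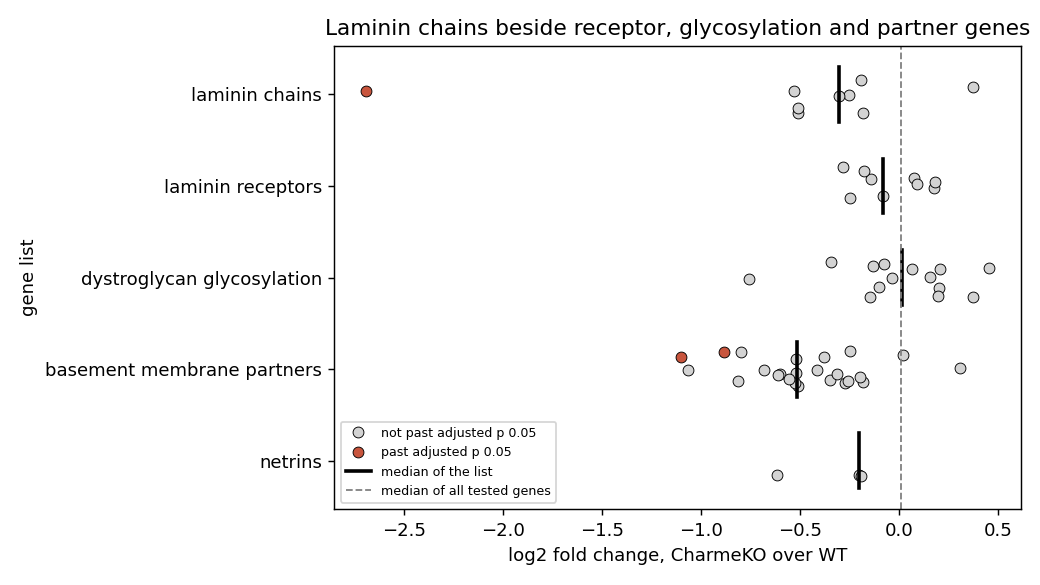
Log2 fold change, CharmeKO over WT, of each tested gene in the laminin chain list and in the lists of related genes, with list medians as black bars and the median of all tested genes, 0.0097, as a dashed line. Red points, Lamc3, Col4a3 and Col4a4, passed an adjusted p of 0.05 in edgeR. The medians of the laminin chains (-0.30), laminin receptors (-0.08), basement membrane partners (-0.52) and netrins (-0.20) lie left of the dashed line. That of dystroglycan glycosylation (0.02) lies right of it.

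By the pattern over the 6 libraries, taken as the root mean square difference of centred log2(CPM + 1), the tested genes outside the family most like Lamc1 were Gli2, Dchs1 and Tmem100, at differences of 0.0434, 0.0583 and 0.0591. Gli2 encodes a transcription factor of Hedgehog signaling and Dchs1 a large cadherin. Gli2, Dchs1 and Tmem100 did not pass the test, with log2 fold changes of -0.55, -0.63 and -0.46 (edgeR, adjusted p = 0.174, 0.104 and 0.241). They were picked for likeness to Lamc1 in these same libraries, so values near those of Lamc1 follow from the choice. The genes nearest to Lamc3 were Gm21451, Slc4a1 and Cxcl10, at differences of 0.316, 0.322 and 0.336. The measure is not scaled to the level of a gene or the size of its change. The differences for Lamc3 and for Lamc1 can therefore not be compared as closeness of match. Slc4a1 is the anion exchanger of red blood cells and Cxcl10 an interferon-induced chemokine. Slc4a1 averaged 25.1 CPM in WT and 7.05 CPM in CharmeKO, Cxcl10 89.3 and 22.2 CPM, and Gm21451 2.77 CPM in WT with 0 in CharmeKO.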

How the data were processed

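The authors filtered reads on quality, aligned them to the mouse genome (GRCm39) with STAR, counted them per gene in the reverse strand configuration on an Ensembl annotation extended by Charme, and deposited raw counts with no gene filter. Genes that reached 10 counts in 2 or more libraries were normalized by TMM and tested with edgeR 4.0.16 (quasi-likelihood test, R 4.3.3), CharmeKO against WT, with Benjamini-Hochberg adjustment and a threshold of 0.05. SEs were derived from the F statistic. Transcript lengths and GC content came from GENCODE mouse release 21 on GRCm38, which covered 99.8% of tested genes. A count of 0 allows up to 3 counts, or 0.0713 to 0.313 CPM. No library duplicated another. Alternatives were DESeq2 1.42.0, other scalings and gene filters, a replicate block, removal of GC and length trends, hemoglobin genes left out, each library left out, and, chosen after seeing the data, a term for the Xist split (over 1000 counts). All members were named, with list genes past the threshold and the 2 most abundant tested genes per list by CPM per kb, and the 3 genes nearest in pattern to Lamc1 and Lamc3. Other genes were named after their values were seen. The members and lists were chosen with earlier results of these data known. Some genes of the lists are not reported here.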

Additional observations from a re-analysis of the deposited data

How the results depend on the processing

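The call of Lamc3 and the sign of all 9 laminin genes were kept under the 15 alternatives. The number of laminin genes past the threshold was 2 with DESeq2 (Lamc1 and Lamc3) and 2 without a gene filter (Lama5 and Lamc3, Lama5 at adjusted p = 0.0242), and 1 otherwise. The median log2 fold change of the 9 genes was -0.16 with the GC and length trend removed, the cause was not tested, and it ran from -0.40 to -0.24 with single libraries left out. All 9 genes had groups apart without CharmeKO replicate 3, Lama3 higher in CharmeKO and the others lower. The number of genes with groups apart was 4 in the main fit and 3 with library totals alone. It was 4 to 9 with single libraries left out, where fewer libraries were compared and groups come apart more easily. The share of all tested genes with groups apart was not computed for these settings. Genes of the related lists past the threshold numbered 2 in the main fit, 9 with DESeq2, 11 without a gene filter, 8 with the replicate block, 0 with the GC and length trend removed, 1 with the Xist term (Col4a4) and 0 to 5 with single libraries left out, and the cause was not tested. Over all genes the 131 calls became 394 with DESeq2, 699 without a gene filter and 61 to 349 with single libraries left out.

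With the replicate block 302 genes were called, and of the laminin genes Lamc3 alone (log2 fold change -2.65). The deviations of same-numbered libraries correlated at 0.216, 0.0535 and 0.161, not over 0.1 in each pair, so the numbers were not taken to pair the samples, although every library correlated best with its own number. With libraries left out, 3 small ratio differences changed sign. For Lamb2 to Lamb1 the difference was -0.15 to 0.13, with 0.13 without WT replicate 2 and 0.01 without CharmeKO replicate 1. For Lama4 to Lama2 it was -0.0959 to 0.0368, with 0.0368 and 0.0269 without WT replicates 1 and 3 and 0.00829 without CharmeKO replicate 1. For beta to alpha sums it was -0.0917 to 0.0185, with 0.0185 without WT replicate 2. WT replicate 3 had the fewest counts, which limits the precision of low genes such as Lamb3 there.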

Other observations

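Marker lists of further cells were read beside the laminin genes. The 5 smooth muscle markers had 5 fitted values above 0 and a median log2 fold change of 0.27, with summed levels of 658 to 740 CPM in WT and 716 to 972 CPM in CharmeKO and 0 genes past the edgeR threshold, 0 also at an unadjusted p under 0.05 and 0 by DESeq2. The 5 lymphatic endothelial markers summed to 236 to 279 CPM in WT and 242 to 264 CPM in CharmeKO. At an unadjusted p under 0.05 in edgeR were 3 of them, beside 12.8% of all tested genes. Prox1 and Pdpn were lower, at -0.57 and -0.54, and Lyve1 was higher, at 0.53. Of the 5 genes 0 passed the edgeR threshold and 1 was called by DESeq2, beside 394 of all 15789 tested genes in either direction. The 4 tested Schwann cell markers summed to 18.9 to 20.96 CPM in WT and 22.2 to 25.2 CPM in CharmeKO. The 4 erythroid genes summed to 24723 to 36021 CPM in WT and 22416 to 28841 CPM in CharmeKO, after red blood cell lysis, and the 4 tested leukocyte markers to 25.3 to 42.8 and 30.5 to 41.4 CPM. Of the adipocyte markers, Cidec was at 0 in all libraries, Plin1 had 1 count and Adipoq 18.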
